A study of Homo sapiens with 6 samples.

Results

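The genes described here are 40 DNA repair genes of homologous recombination, the Fanconi anemia pathway and mismatch repair, chosen by name from a list of symbols that was drawn up with earlier results of these data known. The rule uses no measured value. All 40 were among the 17789 gene symbols listed in at least 1 library, all 40 had a value in each of the 6 libraries, and all 40 passed the filter for testing, a mean of at least 0.5 FPKM. FPKM counts sequenced fragments per length of transcript and per total of mapped fragments, so levels can be compared between genes. RNA sequencing was done on A549, an established human lung cancer cell line of the non-small-cell type. The 3 control libraries carry the genotype label wild type. The 3 knockdown libraries came from the same line transfected in wells with a lipid reagent and a pool of small interfering RNAs against FOXD3, a forkhead transcription factor, and the knockdown was examined after 72 h. What the control wells were given is not stated in the labels. Nor is it stated that replicates were separate cultures, and p-values here therefore reflect only how far these libraries differ, which may be technical variation.

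Homologous recombination repairs a broken chromosome by copying the sister chromatid, and therefore acts mainly in S and G2 phase. The ends are resected, BRCA1, BRCA2, PALB2 and further mediators prepare the single-stranded ends for strand exchange, and helicases and nucleases then resolve the joined molecules. The Fanconi anemia pathway handles DNA crosslinks that stall replication forks: a core complex recognizes the stalled fork and, with the enzyme UBE2T, attaches ubiquitin to FANCD2 and FANCI, which direct nucleases and recombination to the lesion. Mismatch repair removes base-pairing errors left by the polymerase. MSH6 is part of the sensor and PMS2 of the endonuclease that acts after it. Inherited loss of many of these genes raises the risk of cancer.

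The question was how the transcripts of these genes differed between knockdown and control cells. Of the 40 genes, 23 (57.5%) were called higher in knockdown libraries, beside 25.6% of the 13340 genes tested, and 6 (15%) were called lower, beside 37.9% of all genes (limma on log2(FPKM + 1), two-sided, Benjamini-Hochberg adjusted p under 0.05 over all genes tested). The remaining 11 did not pass. The split moved with the scaling of the libraries: after median scaling 24 of the 40 were called higher and 3 lower, beside 31.0% and 32.3% of all genes, and after quantile normalization 27 and 2, beside 32.3% and 29.3%. The median log2 change, knockdown minus control, was 0.36 over the 40 genes and -0.09 over all genes tested. Among the 40, 13 were called higher with a mean FPKM at least 1.5-fold higher, beside 10.0% of all genes, and 0 were called lower with a mean at least 1.5-fold lower, beside 21.7% of all genes. The member called higher with the smallest rise was 1.25-fold up and the one with the largest, FANCM, 2.88-fold; the falls of the members called lower lay between 1.21-fold and 1.42-fold. Knockdown and control libraries did not overlap in 30 of the 40 genes, 23 with the knockdown libraries above and 7 with them below. That is 75%, close to the 69.1% of all genes tested, so the absence of overlap in itself is no result about these genes.

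**Figure D1:**
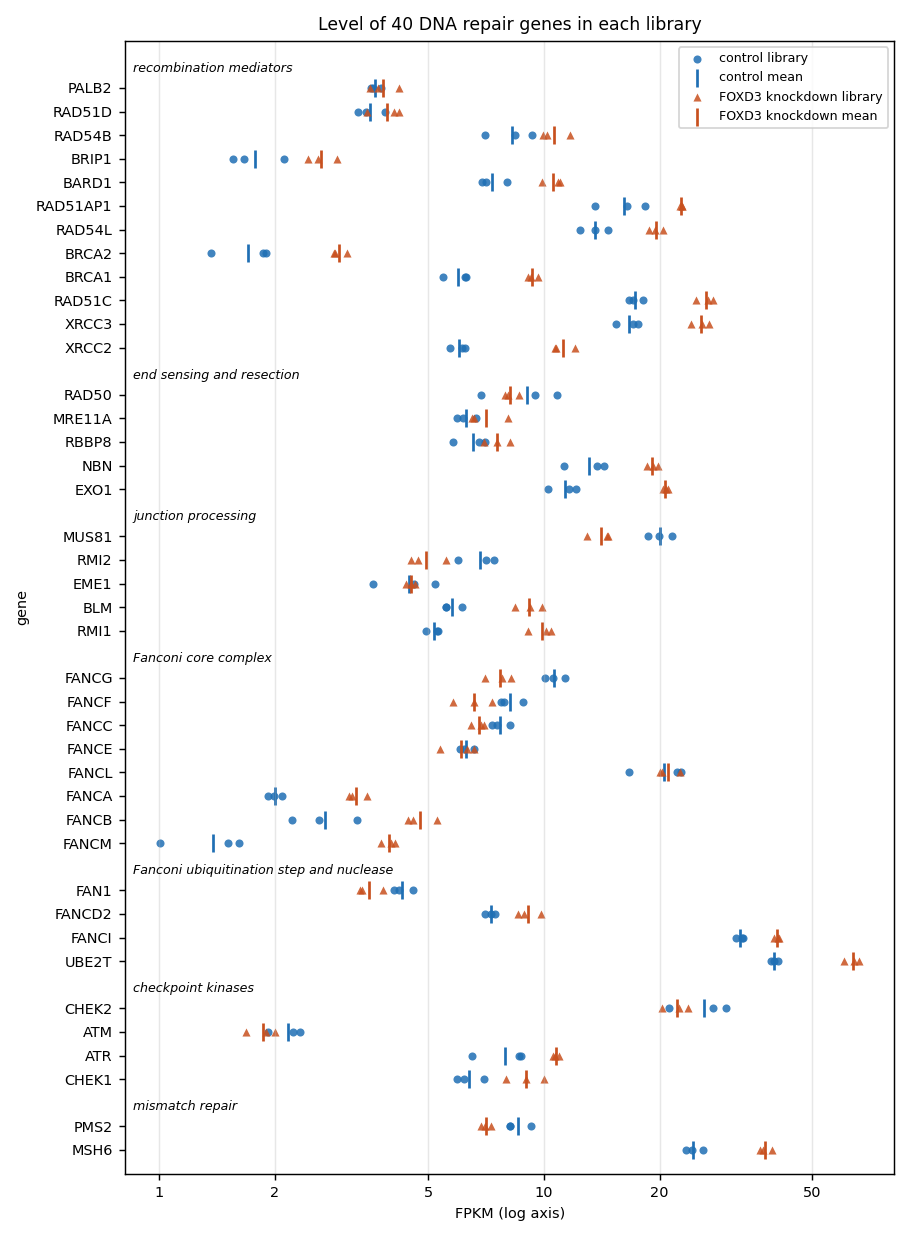
Level in FPKM (log axis) of each of the 40 repair genes in the 3 control (circles) and 3 FOXD3 knockdown libraries (triangles), with vertical bars at the group means and genes grouped by role. The recombination mediators mostly sit to the right in knockdown libraries, with XRCC2 at 12.1, 10.7 and 10.8 FPKM beside 6.24, 6.11 and 5.70 in control, while MUS81, RMI2 and FANCG sit to the left.

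Taken over the 40 genes together, the median and the sum rose in every knockdown library. Single genes differed: the groups overlapped in 10, and the knockdown libraries lay below control in 7. The median FPKM of the 40 genes was 6.94, 7.07 and 7.27 in control replicates 1, 2 and 3 and 9.02, 8.50 and 8.73 in knockdown replicates 1, 2 and 3. Their summed FPKM was 399, 408 and 420 in control and 514, 529 and 517 in knockdown libraries. Both measures were higher in each knockdown library than in each control library. Over all genes tested the sum was 603861 to 617744 in control and 596218 to 614334 in knockdown libraries. By role, the sums overlapped for junction processing (41.8 to 42.5 and 41.8 to 43.1). They also overlapped for the Fanconi core complex (55.5 to 61.3 and 57.6 to 64.0) and the checkpoint kinases (38.3 to 47.7 and 41.3 to 46.0). Sums of the other role groups were higher in each knockdown library. Mean levels in control cells ran from 1.38 FPKM (FANCM) to 39.8 (UBE2T) and in knockdown cells from 1.86 (ATM) to 63.6 (UBE2T). The order of the genes by level was mostly kept, with a Spearman correlation of 0.874 between the group means over the 40 genes, which share the same 6 libraries. Across genes the log2 change had little relation to the mean level (Spearman 0.148, Pearson 0.0982, n = 40 genes). Counted from the highest level, 7 genes moved by at least 10 ranks: XRCC2 went from rank 27 to 13, RMI1 from 30 to 17, BRCA1 from 28 to 18, and FANCF from 17 to 28, for example.

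FOXD3 itself stood at 0.152, 0.291 and 0.134 FPKM in control libraries and at 0.0749 in knockdown replicate 2, and the other 2 knockdown libraries did not list it (exact two-sided permutation test, p = 0.1, the smallest that 3 against 3 allows). It lay under the filter for the fit over all genes. The epithelial markers KRT8, KRT18, EPCAM and CDH1 were high in every library, while of the alveolar markers SFTPC was at or near 0, SFTPB was not listed and NKX2-1 was at 1.27 and 1.60 FPKM on average in control and knockdown libraries. The leukocyte list summed to 72.2 to 82.8 FPKM in control and 67.2 to 68.3 in knockdown libraries, nearly all of it CD68, with the defining markers PTPRC at 0.227 and 0.194 and CD3E at 0 and 0.0310 on average. The endothelial list summed to 2.56 to 3.40 and 1.87 to 2.18 FPKM and the fibroblast list to 3.61 to 4.56 and 2.96 to 3.58. PECAM1 and COL3A1 were near 0, and DCN and LUM were not listed. In the leukocyte list 2 genes passed the filter for testing and both were called lower (log2 changes -0.80 and -0.16). In the endothelial and fibroblast lists 1 gene each passed it. The endothelial one was called lower (log2 change -0.40) and the fibroblast one was not called. The files hold no counts, and low values did not fall on whole multiples of 1 fragment, so the depth is unknown.

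Most markers of cycling cells were called higher in knockdown libraries, beside 25.6% of all genes tested. Of 39 tested S phase markers that are not among the 40, 36 were called higher and 0 lower, with a median log2 change of 0.77. Their summed FPKM was 778 to 841 in control and 1354 to 1394 in knockdown libraries. Of 45 tested G2 and M phase markers, 44 were called higher and 0 lower, with a median of 0.86 and sums of 1619 to 1649 and 2826 to 2866 FPKM. CCNE2, the cyclin of the G1 to S transition, went from 7.56 ± 0.432 to 22.1 ± 0.350 FPKM (SD, n = 3), and CDC20, which switches on the ubiquitin ligase of anaphase, from 54.5 ± 7.43 to 150 ± 8.45. CENPE, a mitotic kinesin, went from 2.50 ± 0.534 to 8.53 ± 0.748. Of the 40 genes, 4 (BLM, BRIP1, EXO1 and RAD51AP1) also belong to the commonly used S phase set and all 4 were called higher. The part of the cell cycle markers in the changes of the repair genes was not tested, and in bulk RNA a change in the number of cells of one kind cannot be told apart from a change in RNA per cell.

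**Figure D2:**
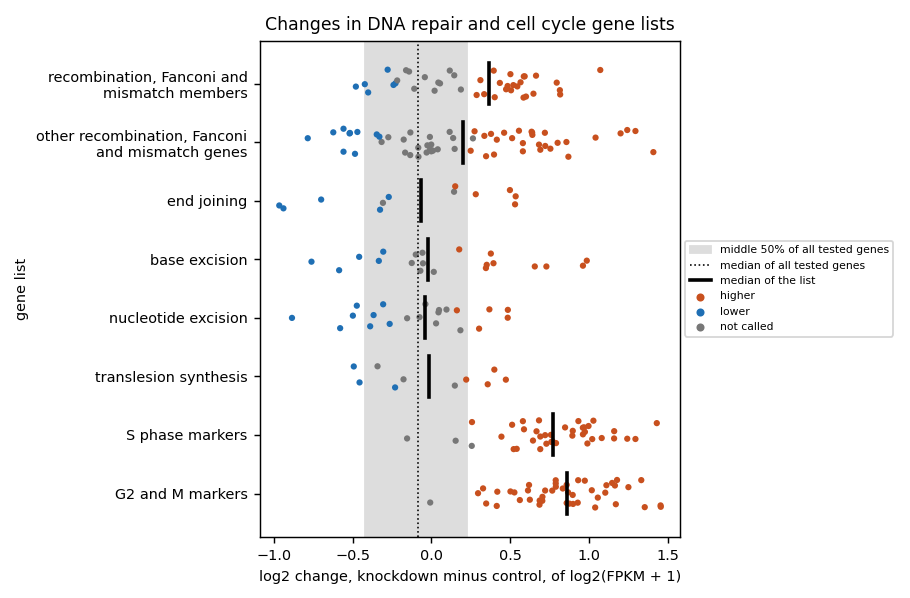
Log2 change of every tested gene (points) in the 40 repair genes and in other repair and cell cycle lists, with the list median (bar), the median of all genes tested (dotted line) and the range of the middle 50% of all genes (grey band). The 40 genes have a median of 0.36, below the S phase (0.77) and G2 and M phase (0.86) markers and above the other repair lists.

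Promoter sequences are shown for the 7 members that were called higher or lower and hold a letter match to an E2F-type site, the element through which many S phase genes are regulated. RefSeq promoter windows (GRCh38.p14, 250 bases before to 50 after each start, 300 in all) were found for 36 of the 40 genes, with 52 windows. Each was searched on both strands for TTTCCCGC, TTTCGCGC, TTTGCCGC and TTTGGCGC, so a printed match can be one of these or its reverse complement. A match lay in 8 of the 36 genes (22.2%) and in 9 of the 52 windows (17.3%), beside 3.31% of all 35116 windows of this length and 4.83% of the 15036 windows of tested genes. Counted by gene, the shares were 3.99% of all genes and 6.55% of tested genes. The single PMS2 match lies in 2 overlapping windows. By call, 6 of 20 genes called higher (EXO1, FANCA, FANCD2, MSH6, RMI1 and XRCC2), 1 of 5 called lower (PMS2) and 1 of 11 not called (FANCC) held one. Median GC content was 64.3% in the members' windows and 64.7% in those of tested genes. The sequences run 5′ to 3′ along the gene, with the match in capitals; a match is a description of the letters and not a binding site. The EXO1 window is chr1:241847954-241848253, plus strand, with the match starting 4 bases after the start site, and the XRCC2 window is chr7:152676092-152676391, minus strand, with the match 21 bases after it. The RMI1 window is chr9:83980555-83980854, plus strand, with the match 32 bases before the start, and the FANCD2 window is chr3:10026187-10026486, plus strand, with the match starting 2 bases before the start. The FANCA window is chr16:89816598-89816897, minus strand, with the match 172 bases before the start, and the MSH6 window is chr2:47782895-47783194, plus strand, with the match 3 bases after it. The PMS2 window shown is chr7:6009000-6009299, minus strand, with the match 100 bases before the start.
EXO1: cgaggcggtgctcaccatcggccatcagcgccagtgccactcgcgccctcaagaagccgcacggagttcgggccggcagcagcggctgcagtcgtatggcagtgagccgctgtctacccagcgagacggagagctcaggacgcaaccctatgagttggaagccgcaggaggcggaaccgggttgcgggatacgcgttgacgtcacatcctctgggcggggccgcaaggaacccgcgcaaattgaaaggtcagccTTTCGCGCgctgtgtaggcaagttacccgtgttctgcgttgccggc
XRCC2: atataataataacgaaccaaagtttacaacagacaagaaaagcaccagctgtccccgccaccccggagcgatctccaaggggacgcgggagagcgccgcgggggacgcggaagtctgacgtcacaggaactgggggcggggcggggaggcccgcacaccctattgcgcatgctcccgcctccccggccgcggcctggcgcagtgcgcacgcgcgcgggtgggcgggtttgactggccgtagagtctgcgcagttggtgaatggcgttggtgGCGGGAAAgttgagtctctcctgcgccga
RMI1: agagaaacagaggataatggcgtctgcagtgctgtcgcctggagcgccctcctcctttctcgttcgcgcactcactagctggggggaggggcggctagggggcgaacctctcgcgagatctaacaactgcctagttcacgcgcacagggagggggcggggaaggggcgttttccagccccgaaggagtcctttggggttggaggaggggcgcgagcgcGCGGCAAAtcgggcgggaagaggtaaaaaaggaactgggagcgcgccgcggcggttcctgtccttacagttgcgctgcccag
FANCD2: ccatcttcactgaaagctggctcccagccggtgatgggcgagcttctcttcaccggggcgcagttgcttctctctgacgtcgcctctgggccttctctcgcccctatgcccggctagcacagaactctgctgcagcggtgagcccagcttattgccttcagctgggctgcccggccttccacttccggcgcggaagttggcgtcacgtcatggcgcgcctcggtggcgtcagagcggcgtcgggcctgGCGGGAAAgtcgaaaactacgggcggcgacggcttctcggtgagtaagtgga
FANCA: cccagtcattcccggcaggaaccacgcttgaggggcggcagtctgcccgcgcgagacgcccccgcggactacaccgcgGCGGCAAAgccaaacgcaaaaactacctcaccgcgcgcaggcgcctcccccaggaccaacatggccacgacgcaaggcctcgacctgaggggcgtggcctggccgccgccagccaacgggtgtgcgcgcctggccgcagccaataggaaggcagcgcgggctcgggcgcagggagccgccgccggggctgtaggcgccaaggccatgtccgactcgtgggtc
MSH6: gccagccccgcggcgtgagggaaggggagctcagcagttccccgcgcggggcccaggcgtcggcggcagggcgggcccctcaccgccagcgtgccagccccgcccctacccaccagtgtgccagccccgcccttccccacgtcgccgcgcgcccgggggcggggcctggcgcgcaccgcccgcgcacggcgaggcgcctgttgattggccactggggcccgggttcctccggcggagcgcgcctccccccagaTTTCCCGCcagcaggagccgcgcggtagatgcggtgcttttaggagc
PMS2: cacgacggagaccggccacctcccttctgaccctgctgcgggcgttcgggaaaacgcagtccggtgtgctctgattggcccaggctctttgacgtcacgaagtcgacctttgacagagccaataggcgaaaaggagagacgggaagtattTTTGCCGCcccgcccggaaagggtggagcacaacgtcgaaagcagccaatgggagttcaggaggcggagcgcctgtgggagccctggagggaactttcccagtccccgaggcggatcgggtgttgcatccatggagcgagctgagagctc

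The same windows were searched for elements of other cycling genes. The CCAAT box, the site of NF-Y, was present on either strand in 24 of the 52 windows (46.2%), beside 34.6% of the windows of tested genes. TTTGAA or TTCGAA, the core of the cell cycle genes homology region of G2 and M phase genes, was present in 4 of the 52 (7.69%), beside 11.9% of the windows of tested genes. The 6 genes with an E2F-type match shown above that were called higher rose by log2 changes of 0.29 (FANCD2) to 0.82 (EXO1), and PMS2, with the same type of match, fell by 0.24 on the log2 scale, a call lost after either scaling alternative. The members called higher without a match included FANCM, the gene with the largest rise.

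The mediators of strand exchange were the group most often called higher. Of 12 genes, 10 were called higher and 0 lower, and 2, PALB2 and RAD51D, did not pass. This count and those of the other role groups stand beside 25.6% of all genes tested called higher and 37.9% called lower. XRCC2 (chr7:152343587-152373250, hg19), a recombination mediator, had 6.24, 6.11 and 5.70 FPKM in the 3 control libraries and 12.1, 10.7 and 10.8 in the 3 knockdown libraries, in the order of replicates 1, 2 and 3 that is used throughout. The lowest knockdown library was well above the highest control library, and the mean was 1.86-fold higher (log2 change 0.79, SE 0.0740, adjusted p = 4.2e-05). XRCC3 (chr14:104163954-104181823), its paralog, went from 17.6, 17.1 and 15.4 to 26.9, 25.9 and 24.2 FPKM, a 1.54-fold rise in the mean without overlap between the groups (log2 change 0.59, SE 0.0676, adjusted p = 0.000125). RAD51C (chr17:56769963-56811692), which forms complexes with both, had 16.7, 18.1 and 17.1 FPKM in control and 24.9, 27.6 and 26.7 in knockdown libraries. That was 1.53-fold higher, again in all 3 libraries (log2 change 0.58, SE 0.0604, adjusted p = 7.23e-05). BRCA1 (chr17:41196312-41277500), the ubiquitin ligase that promotes resection, went from 5.47, 6.24 and 6.29 to 9.09, 9.65 and 9.29 FPKM. It was 1.56-fold higher and every knockdown library exceeded every control library (log2 change 0.57, SE 0.0746, adjusted p = 0.000278). BARD1, the obligate partner of BRCA1, rose 1.44-fold, from 7.35 ± 0.603 to 10.6 ± 0.622 FPKM (log2 change 0.47, SE 0.0787, adjusted p = 0.000978).

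The other mediators called higher rose by 1.29-fold to 1.72-fold. BRCA2, a mediator that acts on single-stranded DNA, was low in both groups, at 1.36, 1.86 and 1.90 FPKM in control and 2.85, 2.86 and 3.08 in knockdown libraries (1.72-fold, log2 change 0.54, SE 0.108, adjusted p = 0.00254). RAD51AP1 and RAD54L, which stimulate strand invasion, were 1.41-fold and 1.44-fold higher (adjusted p = 0.00265 and 0.000419). BRIP1, the BRCA1-bound helicase, was 1.49-fold higher (adjusted p = 0.0129, and 0.0510 without knockdown replicate 1). RAD54B, a relative of RAD54L, was 1.29-fold higher (adjusted p = 0.023), and its call was lost without control replicate 1 (0.0507) or without knockdown replicate 1 (0.0847). Of the 2 genes that did not pass, PALB2, the bridge between BRCA1 and BRCA2, had 3.54, 3.58 and 3.77 FPKM in control and 3.71, 3.54 and 4.19 in knockdown libraries (log2 change 0.05, 95% interval -0.14 to 0.25, adjusted p = 0.601), with overlapping groups. RAD51D, a further mediator, went from 3.53 ± 0.304 to 3.91 ± 0.387 FPKM (log2 change 0.12, 95% interval -0.10 to 0.34, adjusted p = 0.317). After quantile normalization both were called higher, with adjusted p = 0.0117 for PALB2 and 0.0156 for RAD51D, so that all 12 mediators then passed.

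Sensing and resection of the break showed a mixed picture: 2 of 5 genes were called higher and 0 lower. EXO1 (chr1:242011493-242053241), the exonuclease of long-range resection and of mismatch excision, had 12.1, 10.3 and 11.6 FPKM in control and 21.0, 20.7 and 20.4 in knockdown libraries. The knockdown libraries were tightly grouped and all far above control, with a mean 1.82-fold higher (log2 change 0.82, SE 0.0691, adjusted p = 2.58e-05). NBN (chr8:90945564-90996899), the regulatory subunit of the MRE11 complex, had 11.3, 13.7 and 14.4 and 18.5, 19.8 and 19.2 FPKM and was 1.46-fold higher (log2 change 0.52, SE 0.0882, adjusted p = 0.00109). Its 2 complex partners did not pass on the values as deposited. MRE11A, the nuclease, went from 6.27 ± 0.371 to 7.06 ± 0.875 FPKM (log2 change 0.14, 95% interval -0.07 to 0.36, adjusted p = 0.208) and was called higher after quantile normalization (0.0199). RAD50, the ATPase that tethers the ends, had 6.86, 9.47 and 10.8 FPKM in control and 7.92, 8.05 and 8.60 in knockdown libraries (log2 change -0.11, 95% interval -0.43 to 0.21, adjusted p = 0.513). Control replicate 1 was the lowest and the knockdown libraries lay between it and the other controls; without that library RAD50 was called lower (log2 change -0.28, adjusted p = 0.0195). RBBP8, which encodes CtIP, the cofactor that starts resection, had a log2 change of 0.19 (adjusted p = 0.103) and passed as higher after median scaling (0.0263) and quantile normalization (0.0103).

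Of the 5 genes that process joined DNA molecules, 2 were called higher and 2 lower. RMI1 (chr9:86595637-86618987) and RMI2 (chr16:11439311-11445617) encode the OB-fold subunits that join BLM and topoisomerase III alpha in the dissolvasome, the complex that separates double Holliday junctions without crossover. RMI1 went from 4.95, 5.29 and 5.31 to 9.07, 10.5 and 10.1 FPKM, 1.91-fold higher (log2 change 0.81, SE 0.0761, adjusted p = 4.28e-05). RMI2 went the other way, from 7.44, 5.98 and 7.09 to 4.51, 4.69 and 5.58 FPKM, 1.39-fold lower (log2 change -0.40, SE 0.104, adjusted p = 0.0095). The groups of neither gene overlapped, but the call of RMI2 was lost after quantile normalization (adjusted p = 0.117). BLM (chr15:91260579-91358686), the helicase of this complex, followed RMI1, with 5.56, 6.14 and 5.58 FPKM in control and 9.20, 8.41 and 9.87 in knockdown libraries (1.59-fold higher, log2 change 0.59, SE 0.0799, adjusted p = 0.000331). MUS81 (chr11:65627872-65633914), the nuclease subunit that cuts joined molecules, had 19.9, 21.5 and 18.7 FPKM in control and 14.6, 14.7 and 12.9 in knockdown libraries. Every knockdown library was below every control library, the mean was 1.42-fold lower (log2 change -0.48, SE 0.0749, adjusted p = 0.000698), and the call held under each of the 14 alternatives run. EME1, the partner of MUS81, did not pass (log2 change 0.02, 95% interval -0.24 to 0.28, adjusted p = 0.892), with control libraries spread from 3.60 to 5.21 FPKM around the knockdown libraries.

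**Figure D3:**
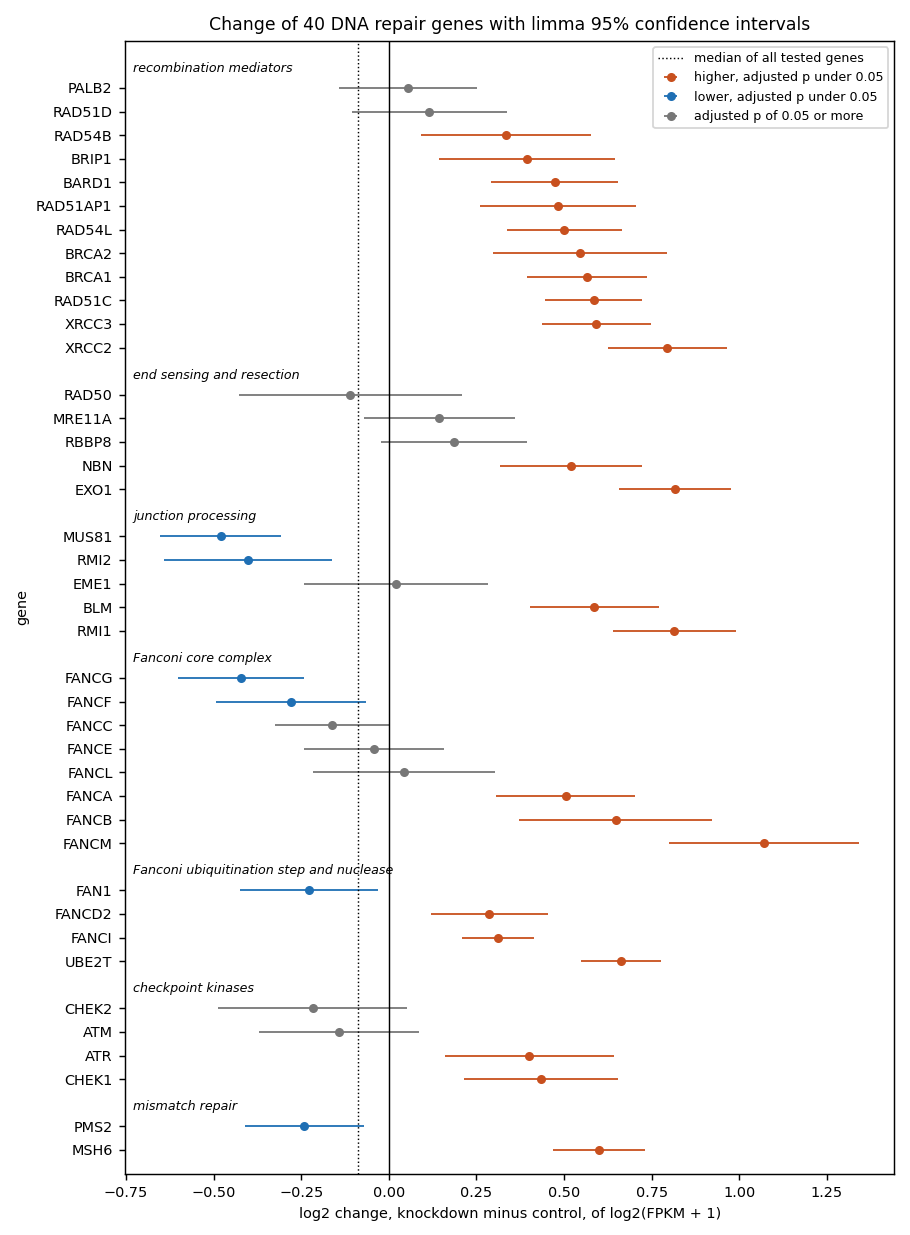
Log2 change of log2(FPKM + 1), knockdown minus control, of the 40 genes with limma's 95% confidence intervals, grouped by role, with the median of all genes tested as a dotted line. FANCM has the largest rise (1.07) and MUS81 the largest fall (-0.48). The groups for junction processing, the Fanconi core complex, the ubiquitination step with nuclease FAN1 and mismatch repair each hold genes called in both directions. The lower calls of FAN1 and PMS2 were lost after median scaling and after quantile normalization. Over all genes tested, 25.6% were called higher and 37.9% lower, so calls in both directions are no particular trait of these groups.

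Of the 8 genes of the Fanconi core complex, 3 were called higher, 2 lower and 3 did not pass. Over all genes tested, 25.6% were called higher and 37.9% lower. Calls in both directions are therefore no particular trait of this group or of junction processing. FANCM (chr14:45605136-45670093), the DNA translocase that anchors the complex at stalled forks, was the lowest of the 40 in control cells, with 1.01, 1.61 and 1.51 FPKM, and had 4.11, 3.99 and 3.77 in knockdown libraries. The lowest knockdown library, at 3.77, was far above the highest control library, at 1.61. The mean was 2.88-fold higher (log2 change 1.07, SE 0.118, adjusted p = 0.000103). FANCB (chrX:14861529-14891184), a scaffold of the catalytic module on the X chromosome, went from 2.60, 3.26 and 2.21 to 4.44, 5.26 and 4.56 FPKM, 1.77-fold higher (log2 change 0.65, SE 0.120, adjusted p = 0.00175). FANCA (chr16:89803959-89883065), the gene most often mutated in Fanconi anemia, went from 1.91, 1.99 and 2.08 to 3.16, 3.47 and 3.12 FPKM, 1.63-fold higher without overlap (log2 change 0.50, SE 0.0859, adjusted p = 0.00111). FANCG (chr9:35073835-35080013), which binds FANCA directly, fell while FANCA rose: it had 11.3, 10.6 and 10.0 FPKM in control and 7.80, 8.22 and 7.05 in knockdown libraries. Its mean was 1.38-fold lower (log2 change -0.42, SE 0.0781, adjusted p = 0.00172), and the call held under each of the 14 alternatives. FANCF (chr11:22644079-22647387), the adaptor for the FANCC and FANCE module, had 7.90, 7.75 and 8.85 and 5.82, 7.32 and 6.57 FPKM and was 1.24-fold lower (log2 change -0.28, SE 0.0929, adjusted p = 0.029), a call lost under 6 of 14 alternatives (adjusted p from 0.0179 to 0.242).

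The 3 core genes that did not pass were FANCC, FANCE and FANCL. FANCC, with 7.54, 7.35 and 8.18 FPKM in control and 6.98, 6.46 and 6.86 in knockdown libraries, did not overlap between the groups and still missed the threshold (log2 change -0.16, 95% interval -0.33 to 0.00, adjusted p = 0.0794). FANCE, its partner, went from 6.28 ± 0.267 to 6.08 ± 0.636 FPKM (log2 change -0.04, 95% interval -0.24 to 0.16, adjusted p = 0.691). FANCL, the ubiquitin ligase of the core complex, went from 20.5 ± 3.33 to 21.0 ± 1.45 FPKM (log2 change 0.04, 95% interval -0.22 to 0.30, adjusted p = 0.756). Here too control replicate 1 was the lowest library, at 16.7 FPKM. It was the lowest control in 20 of the 40 genes, against 9 for control replicate 2 and 11 for control replicate 3. It was also the highest control in 12 genes, against 9 for control replicate 2 and 19 for control replicate 3.

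In the group of the ubiquitination step and the nuclease FAN1, 3 of 4 genes were called higher and 1, FAN1, lower. UBE2T (chr1:202300785-202311094), the ubiquitin-conjugating enzyme that works with FANCL, was the highest of the 40 in both groups, with 40.7, 39.6 and 39.0 FPKM in control and 60.4, 66.2 and 64.2 in knockdown libraries. It rose 1.60-fold with very little spread in control (log2 change 0.66, SE 0.0496, adjusted p = 1.39e-05), while its ligase FANCL did not pass. FANCI (chr15:89787194-89860362) and FANCD2 (chr3:10068113-10143614) encode the 2 subunits of the clamp that receives the ubiquitin. FANCI went from 33.0, 31.5 and 32.8 to 39.8, 40.7 and 40.8 FPKM (1.25-fold, log2 change 0.31, SE 0.0448, adjusted p = 0.000454) and FANCD2 from 7.30, 7.05 and 7.46 to 9.85, 8.59 and 8.86 (1.25-fold, log2 change 0.29, SE 0.0726, adjusted p = 0.00871). Both rises were modest, among the smallest of the members called higher. FAN1 (chr15:31196055-31235310), the nuclease that binds ubiquitinated FANCD2, had 4.20, 4.58 and 4.07 FPKM in control and 3.83, 3.33 and 3.38 in knockdown libraries, 1.22-fold lower (log2 change -0.23, SE 0.0859, adjusted p = 0.0456). That call depended on the processing: it held under 5 of the 13 alternatives in which the gene was tested, with adjusted p from 0.0254 to 0.832, and the change was 0.02 after quantile normalization.

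Of the 4 checkpoint kinases, 2 were called higher and 0 lower. ATR (chr3:142168077-142297668), the kinase that responds to single-stranded DNA at stalled forks, had 6.49, 8.63 and 8.72 FPKM in control and 10.7, 10.6 and 11.0 in knockdown libraries (1.35-fold higher, log2 change 0.40, SE 0.105, adjusted p = 0.00991). CHEK1 (chr11:125495031-125546150), the kinase that ATR activates, went from 5.96, 6.20 and 6.99 to 8.97, 10.0 and 7.99 FPKM (1.41-fold higher, log2 change 0.43, SE 0.0951, adjusted p = 0.00424). Every knockdown library was above every control library for both genes. ATM, the kinase that responds to double-strand breaks, was not called, with 1.92, 2.23 and 2.32 FPKM in control and 1.90, 1.68 and 1.99 in knockdown libraries (log2 change -0.14, 95% interval -0.37 to 0.09, adjusted p = 0.241). CHEK2, its target, had 27.5, 21.2 and 29.7 and 22.4, 23.7 and 20.3 FPKM with overlapping groups (log2 change -0.22, 95% interval -0.49 to 0.05, adjusted p = 0.138). Control replicate 2 was the low one, and without it CHEK2 was called lower (log2 change -0.35, adjusted p = 0.00786).

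The 2 mismatch repair genes moved apart. MSH6 (chr2:48010221-48034092), which recognizes mispaired bases, stood at 23.4, 24.2 and 25.9 FPKM in control and 37.2, 36.5 and 39.2 in knockdown libraries, 1.54-fold higher (log2 change 0.60, SE 0.0566, adjusted p = 4.51e-05). PMS2 (chr7:6012870-6048737), an endonuclease subunit, went from 9.29, 8.18 and 8.16 to 7.05, 6.85 and 7.30 FPKM, 1.21-fold lower (log2 change -0.24, SE 0.0740, adjusted p = 0.0205). Its groups did not overlap, but the call was lost after median scaling (0.101) and quantile normalization (0.283) and held in 10 of 14 alternatives. RefSeq lists 15 pseudogene or related copies of PMS2, so its level is uncertain.

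Partners that act in 1 complex are set side by side as the ratio of their FPKM in each library, over 8 pairs. The exact two-sided permutation test cannot go below p = 0.1 with 3 against 3, and the smallest value after Benjamini-Hochberg adjustment over the 8 pairs was 0.2, so none could pass. RMI1 over RMI2 was 0.665, 0.885 and 0.749 in control and 2.01, 2.23 and 1.82 in knockdown libraries (p = 0.1, exact permutation test). RMI1 thus went from the less to the more abundant transcript in every library. PALB2 over BRCA2 was 2.61, 1.93 and 1.99 in control and 1.31, 1.24 and 1.36 in knockdown libraries (exact p = 0.1), EME1 over MUS81 0.226 ± 0.0562 and 0.321 ± 0.0310, and NBN over MRE11A 2.09 ± 0.218 and 2.74 ± 0.254 (SD, n = 3, both exact p = 0.1). The groups of these 4 ratios did not overlap. FANCI over FANCD2 was 4.46 in both groups on average (exact p = 1) and XRCC3 over RAD51C 0.967 and 0.974 (exact p = 0.9), with overlapping groups. BARD1 over BRCA1 (1.24 and 1.14, exact p = 0.6) and RAD50 over MRE11A (1.44 and 1.17, exact p = 0.3) overlapped as well.

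**Figure D4:**
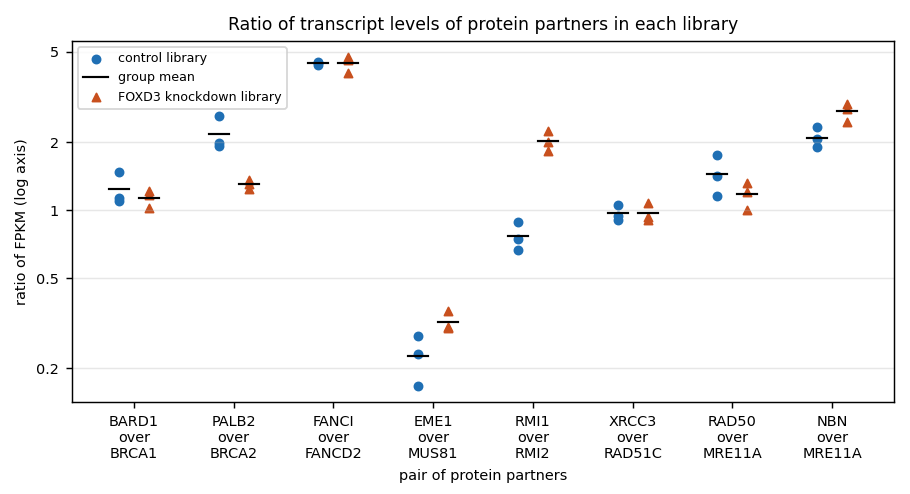
Ratio of FPKM (log axis) of 8 pairs of protein partners in each control (circles) and FOXD3 knockdown library (triangles), with bars at the group means. RMI1 over RMI2 moves from 0.766 to 2.02 on average, while FANCI over FANCD2 is 4.46 in both groups.

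Several of the 40 genes share their start region with a gene on the other strand. In 13, another listed gene starts within 1000 bases in the opposite direction, and in the 12 pairs with a tested neighbour the starts were 9 to 343 bases apart. Both genes were called in opposite directions in 4 pairs and in the same direction in 1. After median scaling these counts were 3 and 2, and after quantile normalization 2 and 3. Under each scaling BRCA1 beside NBR2 and FANCB beside MOSPD2 were opposite and RMI1 beside HNRNPK alike. Over all genes tested, 25.6% were called higher and 37.9% lower, so some pairs of either kind would be met among unrelated genes. The counts were not tested against that. NBR2, a long noncoding RNA gene 100 bases from BRCA1, had 3.79, 4.15 and 4.92 FPKM in control and 1.49, 1.02 and 1.36 in knockdown libraries. It was 3.32-fold lower (log2 change -1.21, SE 0.120, adjusted p = 6.03e-05) where BRCA1 was 1.56-fold higher. AIMP2, a scaffold of the tRNA synthetase complex that starts 145 bases from PMS2, rose from 23.3, 22.3 and 20.8 to 26.8, 31.6 and 30.6 FPKM (log2 change 0.40, SE 0.0741, adjusted p = 0.00166) where PMS2 fell, in a pair that was no longer called opposite after either scaling. MOSPD2, 343 bases from FANCB, went from 8.52, 12.9 and 10.6 to 6.15, 6.05 and 7.44 FPKM (log2 change -0.62, SE 0.139, adjusted p = 0.0049). CIDECP, a pseudogene 293 bases from FANCD2, fell by 0.32 on the log2 scale (adjusted p = 0.0116), a call lost after quantile normalization (0.177).

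HNRNPK, an abundant RNA-binding protein gene 68 bases from RMI1, was called higher as RMI1 was, with 281, 285 and 272 FPKM in control and 395, 403 and 406 in knockdown libraries (log2 change 0.52, SE 0.0364, adjusted p = 1.03e-05). In 2 pairs the neighbour was called higher and the repair gene was not called: NPAT, a histone gene activator 194 bases from ATM, went from 2.80 ± 0.375 to 3.82 ± 0.179 FPKM (adjusted p = 0.0146), and MRPL27, a mitochondrial ribosomal protein gene 19 bases from EME1, from 48.8, 45.5 and 45.9 to 69.8, 68.0 and 67.5 (adjusted p = 2.53e-05). In 2 pairs only the repair gene was called (RAD51AP1 beside C12orf4 and XRCC3 beside ZFYVE21) and in 3 neither was (CHEK2 beside HSCB, MRE11A beside ANKRD49 and PALB2 beside DCTN5). C12orf4 was called higher after median scaling (adjusted p = 0.0454) and quantile normalization (0.0152), and DCTN5 too (0.0235 and 0.0397), PALB2 joining it after the latter. TEX14, beside RAD51C, was under the filter.

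**Figure D5:**
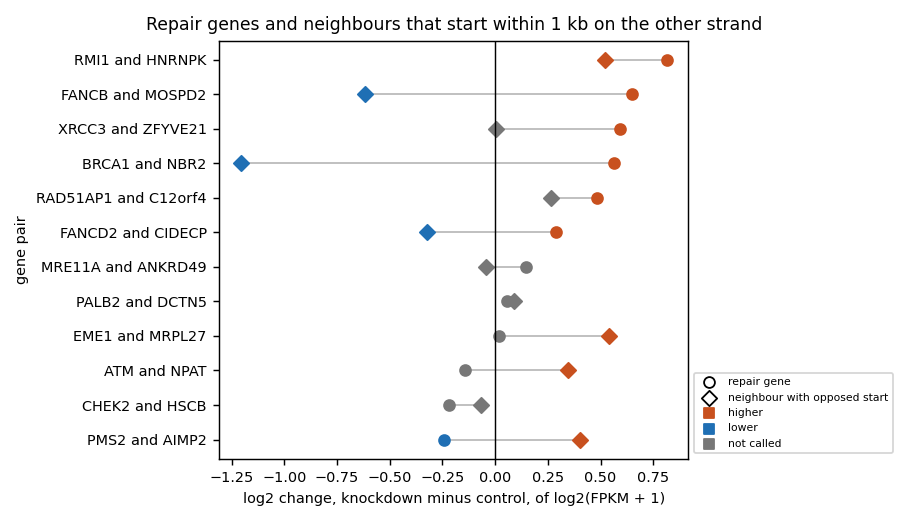
Log2 change of 12 repair genes (circles) and of the gene that starts within 1000 bases on the other strand (diamonds), colored by call. BRCA1 (0.57) and NBR2 (-1.21) are farthest apart, and RMI1 (0.81) and HNRNPK (0.52) are the pair called in the same direction on the values as deposited.

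The deposited loci of 12 of the 40 genes overlap another listed gene, and the strand setting of the library counting is not given in the sources used here, so reads in the shared bases cannot be assigned with certainty. The longest overlaps were 20611 bases for FANCD2 and C3orf24 and 20078 for RAD51D and the readthrough gene RAD51L3-RFFL on the same strand, both of them neighbours under the filter. The overlap was 3374 bases for FANCA and ZNF276, 3935 for XRCC3 and KLC1, 4167 for FAN1 and MTMR10 and 827 for FANCI and POLG. ZNF276, MTMR10 and POLG were not called, and KLC1, at 60.8 FPKM in control and 55.2 in knockdown libraries, was called lower (adjusted p = 0.0139, and 0.322 after median scaling) where XRCC3 was called higher. Shorter overlaps had called neighbours. LRRC59 shares 227 bases with EME1 and was called higher (adjusted p = 3.06e-05). Called lower were LRRC41 (74 bases, RAD54L), FBXO11 (34 bases, MSH6) and EFEMP2 (3 bases, MUS81). VRK2 (678 bases, FANCL) was not called, and ACRV1 (3922 bases, CHEK1) was under the filter. Pseudogene copies are also listed in RefSeq for CHEK2 (6), FANCD2 (2), RBBP8 (2), BRCA1 (1) and RAD51AP1 (1), whose reads could be shared.

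Other genes of the same pathways were counted from a list of 60 symbols outside the 40. Of the 58 tested, 28 (48.3%) were called higher and 10 (17.2%) lower, beside 25.6% and 37.9% of all genes, with a median log2 change of 0.20. STRA13, whose product (also named CENPX or MHF2) binds FANCM as part of a histone-fold complex, went from 39.7 ± 4.15 to 107 ± 7.74 FPKM (log2 change 1.41, SE 0.0815, adjusted p = 4.27e-06). TIPIN and CLSPN, which hold the replication fork together and pass the ATR signal to CHEK1, went from 6.82 ± 0.657 to 18.1 ± 0.908 (log2 change 1.29, SE 0.0789, adjusted p = 5.46e-06) and from 2.23 ± 0.204 to 6.62 ± 0.0724 (log2 change 1.24, SE 0.0818, adjusted p = 7.69e-06). These 3 had the largest changes of the list. TIPIN, CLSPN, RPA2 and USP1 are among the genes that stand both in this list and among the S phase markers, as do FEN1 and UNG of base excision.

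The other repair pathways had medians near that of all genes (-0.09), but most had a larger share called higher than the 25.6% of all genes tested. That share was 41.7% in end joining, 45% in base excision, 23.8% in nucleotide excision and 40% in translesion genes. Called lower were 41.7%, 25%, 38.1% and 30%, beside 37.9% of all genes. Of 12 end joining genes 5 were called higher and 5 lower (median -0.06), and POLL, a gap-filling polymerase, went from 15.1 ± 0.973 to 7.26 ± 0.601 FPKM (log2 change -0.97, SE 0.0783, adjusted p = 2.1e-05) and APLF, a scaffold factor, from 1.30 ± 0.153 to 0.199 ± 0.0663 (log2 change -0.94, SE 0.113, adjusted p = 0.000163). Of 20 base excision genes 9 were higher and 5 lower (median -0.02), led by the glycosylase NEIL3 (7.60 ± 0.905 to 16.0 ± 1.01 FPKM) and the flap nuclease FEN1 (22.9 ± 1.70 to 45.5 ± 0.210 FPKM), with log2 changes of 0.99 and 0.96. Of 21 nucleotide excision genes 5 were higher and 8 lower (median -0.04); the nuclease ERCC5, which encodes XPG, went from 10.6 ± 0.441 to 5.31 ± 0.439 FPKM (log2 change -0.89) and CDK7, the kinase of TFIIH, from 46.0 ± 2.85 to 30.4 ± 0.765 (-0.58). Of 10 translesion genes 4 were higher and 3 lower (median -0.01), with UBE2B, a RAD6 enzyme, at -0.49 and UBE2N, which extends ubiquitin chains on PCNA, at 0.47. These lists were not tested against one another.

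The authors' deposited table of their own comparison, which gives 1 value per group, holds all 40 genes. At a false discovery rate under 0.05 the authors' deposited table has 11 of the 40 higher (27.5%, beside 10.9% of its 12275 rows) and 0 lower (beside 11.2%). The 11 in the authors' deposited table are BLM, BRCA1, BRCA2, EXO1, FANCB, FANCM, MSH6, NBN, RMI1, UBE2T and XRCC2, and all were also called higher by limma. The sign of the change in the authors' deposited table was that of limma in 39 of 40 genes, FANCE being the exception. For the 6 genes that limma called lower, the false discovery rate in the authors' deposited table was 0.293 for MUS81, 0.363 for FANCG, 0.50 for RMI2, 0.610 for FANCF, 0.725 for FAN1 and 0.746 for PMS2.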

How the data were processed

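The data are FPKM values per gene of 6 RNA-seq libraries, which the authors deposited in 1 table per library, per the file headers. The submitters' processing notes name the build hg19 and the tools Cuffdiff, Cufflinks 2.0.2, Bowtie and TopHat2 2.0.12. The authors also deposited log2 fold changes with p-values and false discovery rates, per the file headers; they were used only where named. Promoters came from RefSeq (GRCh38.p14), a build other than that of the loci.

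FPKM was summed over the rows of a symbol, with unlisted symbols at 0. The 13340 genes whose mean reached 0.5 FPKM were fitted on log2(FPKM + 1) in R 4.3.3 by limma 3.58.1 (trended eBayes after lmFit, no covariate); the script was tested on simulated data. A fold is the ratio of mean FPKM; log2 changes understate those of low genes. Adjusted p-values printed are limma's with Benjamini-Hochberg adjustment over all genes. Members and lists were chosen with earlier results of these data known. Sample values were given for up to 4 called members per role with the largest change and all called lower; other members were chosen after their values were seen. From other lists the 3 (recombination) or 2 called genes with the largest change were named; some genes are not reported here. Partner pairs were chosen after the values were seen. Neighbours lie within 1000 bases. Alternatives changed the pseudocount (0.1, 0.5), filter (none, 5 FPKM), scaling (median, quantile), trend, handling of repeated symbols, and left out each library.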

Additional observations from a re-analysis of the deposited data

How the results depend on the processing

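Of 550 values of single members under the alternatives, 511 kept their direction and their side of the threshold. With the sign kept, 21 lost the call and 7 gained one, and 11 changed sign. Among those 11, FAN1 after quantile normalization also lost its call (adjusted p = 0.832). Of the 29 members called, 23 kept the call under every alternative in which they were tested, 21 higher and 2 lower (MUS81 and FANCG). Members called higher numbered 24 after median scaling, 27 after quantile normalization and 21 to 23 with a library left out, beside 23. Members called lower numbered 3 after median scaling, 2 after quantile normalization and 4 to 6 with a library left out, beside 6. Scaling moved the median of all genes from -0.09 to -0.01 (median scaling) and 0.03 (quantile), a shift of over 0.1 for the latter, and the share of all calls that were higher from 40.4% to 49.0% and 52.4%; member changes in the report stand beside a median of -0.09. The median member change was 0.40 with a pseudocount of 0.1, 0.44 after median scaling, 0.47 after quantile normalization and 0.31 to 0.39 with a library left out. With a filter at 5 FPKM, which leaves 9170 genes to test, 3295 genes were called lower instead of 5050. Genes called higher numbered 2967 instead of 3417. The share of all calls that were higher was thus 47.4% with this filter, beside 40.4%. Changes of sign were seen in members that did not pass, except FAN1: RAD50 was 0.0027 (quantile), FANCE 0.034 (median scaling) and 0.13 (quantile), ATM 0.13 (quantile) and FAN1 0.022 (quantile). With a library left out, PALB2 ranged from -0.0011 to 0.096, RAD50 from -0.28 to 0.018, EME1 from -0.10 to 0.12, FANCE from -0.093 to 0.033 and FANCL from -0.092 to 0.12. The cause was not tested. No paired analysis was possible because the labels give no replicate numbers; the numbers used here only name the libraries, in the order of their records, and tie no control to a knockdown library. The files give no counts, so no interval for counting error can be given.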
